A study of Mus musculus with 16 samples.

Results

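The insulin-like growth factor (IGF) genes Igf1 and Igf2, their receptors Igf1r and Igf2r, and the binding protein genes Igfbp2 to Igfbp7 were compared between brown and white fat of the mouse. These 10 genes were taken as the members, out of 18194 genes on the array, and they were measured by 28 of its 45101 probe sets (groups of short probes read as 1 value), each carrying that gene's symbol alone. RNA came from 2 depots of LACA mice, an outbred stock: white fat of the subcutaneous region (sWAT) and interscapular brown fat (BAT). All animals were labelled male, weighed 25 ± 3 g, received standard chow and no treatment, and carried no stated allele. Their age was not given in the sources used here. Each tissue had 4 replicates, numbered 1 to 4, and each replicate had 2 arrays, a biological and a technical one, making 16 arrays. The study asked how the expression profiles of these tissues differ.

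IGF1 and IGF2 are small secreted proteins related to insulin. Both act through IGF1R, a tyrosine kinase receptor, which recruits insulin receptor substrates and activates the PI3K and AKT pathway, whereas IGF2R, which also sorts lysosomal enzymes, carries IGF2 to the lysosome for breakdown. In the circulation and between cells most IGF is held by binding proteins, which prolong its life and limit its access to the receptor until proteases such as PAPP-A release it. Growth hormone drives Igf1 transcription in liver and fat, and in adipose tissue IGF1 promotes the differentiation of preadipocytes. IGFBP7 is a more distant relative of the family that binds IGF weakly.

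Values were deposited on the log2 scale relative to each probe set's median over the 16 arrays. They therefore give differences between samples, and no level of one gene against another. A difference is given below as BAT minus sWAT on that scale, with its standard error (SE), and a gene was called at an adjusted p under 0.05 in a linear model with the replicate number as a block. Array precision is limited by the 4 replicates per tissue.

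Several libraries stood apart from the rest or went against their labels. Ucp1, the uncoupling protein of brown fat, differed by 7.58 ± 0.49 (SE), Cidea by 3.68, and 12 of 12 brown adipocyte markers were higher in BAT. All 14 skeletal muscle fibre markers were also higher there (Acta1 by 6.21, Tnnc2 by 6.47). Lower in BAT were 9 of 9 B cell markers (Ms4a1 at -6.54) and 8 of 9 T cell markers (Cd3e at -0.83, Cd3g at -4.10). So were 5 of 5 lymph node stroma markers (Glycam1 at -7.91, Madcam1 at -0.96). Xist, expressed in female cells, lay between 5.74 and 6.36 in BAT replicates 1 to 3, against -0.26 in BAT replicate 4 and -0.27 to -0.11 in sWAT. The 3 Y-linked genes measured lay between -3.21 and -1.16 in BAT replicates 1 to 3 and between -0.053 and 0.62 in the other libraries. Thus BAT replicates 1 to 3 went against the label male and differed in these genes from the sWAT replicates of the same number. Tissues numbered 1 to 3 therefore do not look like pairs from the same animals. Agreement over the 4 replicate numbers, given below, describes the libraries and is not agreement within animals. In addition, 1 array of sWAT replicate 3 and 1 of BAT replicate 1 had low signal at the 5' control probes, and the correlation between the arrays of those replicates was 0.398 and 0.553, against 0.89 to 0.941 in the other 6.

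Of the 10 genes, Igf2 was higher in BAT, and Igf1, Igfbp4 and Igfbp7 were lower. Both receptors and the other 4 binding protein genes did not pass the test. Over all genes, 21% were called higher in BAT and 17.5% lower, so that the share of members called, 4 of 10, was near that of the array as a whole. Igf1 alone was called with a difference of at least 2-fold, a size and direction reached by 8% of all genes, and no member reached it toward BAT, which 7.13% of genes did. The median difference over the members was -0.24, compared with 0.15 over all genes.

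**Figure D1:**
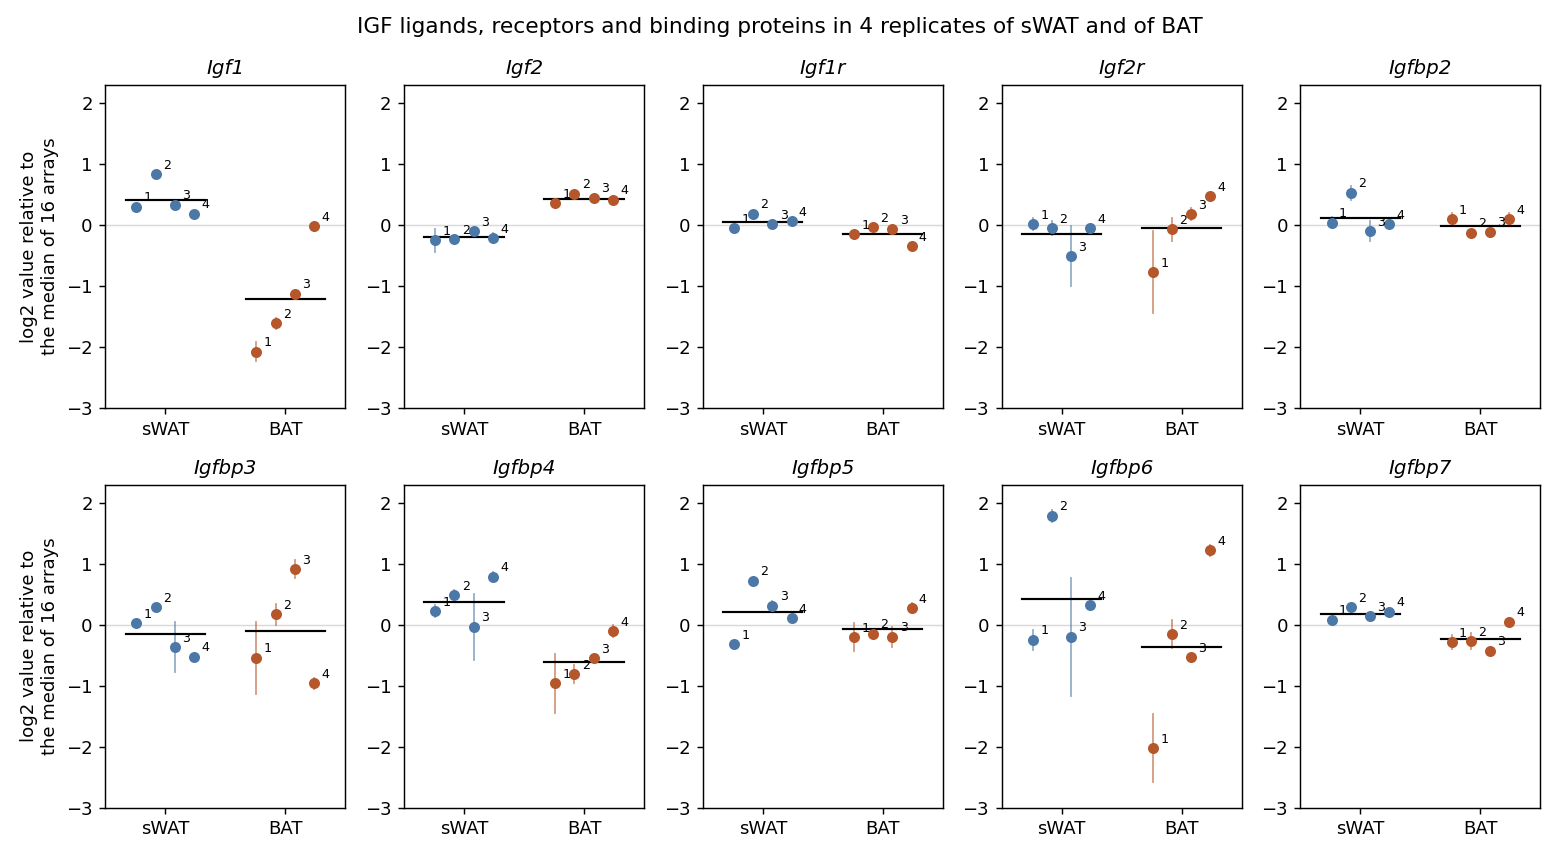
Log2 values (vertical axis, relative to the median of the 16 arrays) of the 10 genes in sWAT and BAT replicates 1 to 4; points are replicates, thin lines join the 2 arrays of a replicate, and black bars are tissue means. Igf1, Igfbp4 and Igfbp7 lay lower in all 4 BAT replicates than in any sWAT replicate, Igf2 lay higher, and the other 6 genes overlapped.

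The groups did not overlap for these same 4 genes, with all BAT replicates above all sWAT replicates for Igf2 and below them for the other 3. Over all genes 28% had every BAT replicate above every sWAT replicate, and 17.4% had every one below. At the level of probe sets, 1 of 28 was called higher in BAT (15.1% of all probe sets) and 10 were called lower (17.3%). Of these 10, 9 differed by at least 2-fold (9.56% of all probe sets), and none of the 28 did so toward BAT (6.1%). These probe sets are not independent, since 4 measured Igf1, 5 measured Igfbp4 and 1 measured Igfbp7.

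**Figure D2:**
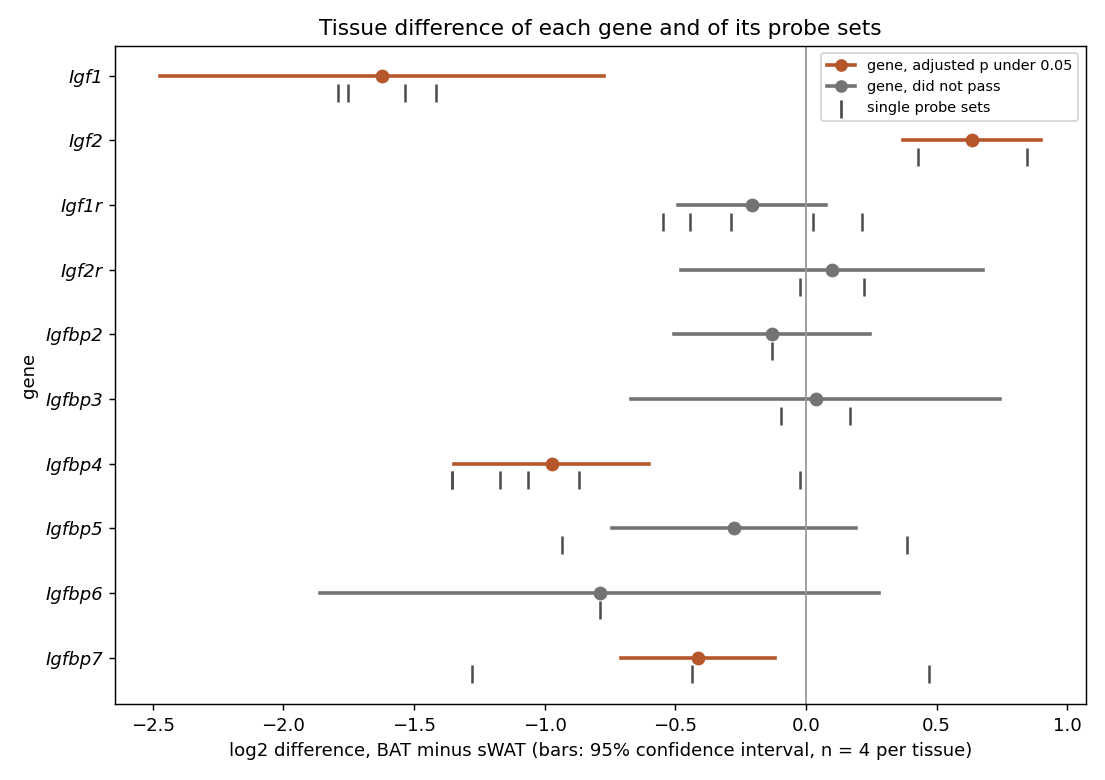
Log2 difference between BAT and sWAT (horizontal axis) for each gene, with its 95% confidence interval over 4 replicates per tissue, and for its single probe sets (vertical ticks). The 4 Igf1 probe sets lay together, from -1.79 to -1.41, whereas those of Igfbp5 and of Igfbp7 lay on both sides of 0.

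Igf1, the growth hormone induced ligand, showed the largest difference of the 10 genes. Its values in sWAT replicates 1 to 4 were 0.30, 0.83, 0.34 and 0.19, and in BAT they were -2.08, -1.61, -1.13 and -0.020. All sWAT replicates were above all BAT replicates, but BAT replicate 4 lay close to sWAT and far from the other BAT replicates. The difference was -1.62 ± 0.36 (SE), or 3.08-fold higher in sWAT, with a 95% confidence interval of -2.47 to -0.77 and an adjusted p of 0.0118. All 4 probe sets were called lower in BAT by at least 2-fold. In each of them BAT replicate 4 differed little from sWAT replicate 4, by -0.31 to -0.020, whereas the replicates numbered 1 to 3 differed by -3.08 to -1.16. Leaving out replicate number 1 gave -1.37 and an adjusted p of 0.0603, which ended the call. Leaving out number 4 gave -2.10 and an adjusted p of 8.49e-04, but kept only the BAT replicates with the Xist signal. A paired t-test like that of the methods, rerun on gene means of the 4 averaged pairs, also ended the call (adjusted p = 0.126 over all genes). The study's own test was run on probe sets, and it listed Igf1 as 3.37-fold higher in white fat. BAT replicate 4 lay -0.43 from the sWAT mean.

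The promoters of the 3 genes that were lower in BAT are printed to show how unlike their upstream sequences are. They hold the 250 bases before the RefSeq transcription start on GRCm38.p6, 5' to 3' on the gene's strand, in lower case with matches to 3 short motifs in capitals. Both strands were searched. The TATA box motif TATAAA occurred in 12.4% of 32851 promoters of the same length. The GC box motif GGGCGG occurred in 32.7%, and the palindrome TTCNNNGAA, which STAT factors bind, in 7.02%. No motif match overlapped another.
Igf1, chr10:87860861-87861110, plus strand: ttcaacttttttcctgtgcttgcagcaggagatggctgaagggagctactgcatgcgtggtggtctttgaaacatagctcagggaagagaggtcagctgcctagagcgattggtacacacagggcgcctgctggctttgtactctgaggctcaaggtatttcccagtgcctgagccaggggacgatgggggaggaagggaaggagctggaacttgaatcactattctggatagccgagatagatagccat
Igfbp4, chr11:99040994-99041243, plus strand: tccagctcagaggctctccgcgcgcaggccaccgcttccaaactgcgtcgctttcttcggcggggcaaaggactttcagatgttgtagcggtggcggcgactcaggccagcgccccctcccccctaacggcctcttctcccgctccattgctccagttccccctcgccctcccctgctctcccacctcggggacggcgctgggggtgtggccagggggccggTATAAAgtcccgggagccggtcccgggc
Igfbp7, chr5:77408046-77408295, minus strand: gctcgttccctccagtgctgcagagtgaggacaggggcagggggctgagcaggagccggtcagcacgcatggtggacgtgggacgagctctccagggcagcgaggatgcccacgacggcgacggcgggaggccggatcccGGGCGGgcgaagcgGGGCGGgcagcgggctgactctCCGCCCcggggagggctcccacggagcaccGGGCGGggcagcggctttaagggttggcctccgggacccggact

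Igf1 held 5 CpG dinucleotides and none of the 3 motifs in this window, Igfbp4 held 22 CpG and 1 TATA box match, and Igfbp7 held 26 CpG and 4 GC box matches. The median promoter had 6 CpG and a GC content of 52.4%, against 52.8%, 69.2% and 74% for Igf1, Igfbp4 and Igfbp7. A match describes letters in the window and nothing about binding. All 10 members had RefSeq promoter entries.

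Igf2, the imprinted ligand best known from fetal growth, was the one member higher in BAT. Its 4 sWAT values of -0.25, -0.24, -0.10 and -0.22 and its 4 BAT values of 0.36, 0.51, 0.45 and 0.42 were each tightly grouped, with no overlap. The difference of 0.64 ± 0.11 (SE) amounted to 1.55-fold (95% confidence interval 0.37 to 0.90, adjusted p = 0.00451). The gene value differed by 0.55 to 0.75 at the 4 replicate numbers, and BAT replicate 4 lay 0.62 above the sWAT mean. Of its 2 probe sets, 1448152_at differed by 0.84 (adjusted p = 0.00848) and 1415931_at by 0.43 (adjusted p = 0.092), both with BAT above sWAT. These probe sets varied more than their mean. At replicate numbers 1 to 4, 1448152_at differed by 0.36, 1.11, 1.08 and 0.83, and 1415931_at by 0.86, 0.39, 0.019 and 0.44. RefSeq lists 4 starts for Igf2, with 1 to 22 CpG in the 250 bases before them. Ins2 and Mrpl23 are its protein-coding neighbours, and H19, the imprinted RNA gene of the same region, had no probe set carrying its symbol alone.

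Neither receptor gene passed the test. For Igf1r, the signalling receptor, sWAT lay at -0.047, 0.19, 0.016 and 0.066 and BAT at -0.15, -0.035, -0.068 and -0.35. BAT was below sWAT at each of the 4 replicate numbers, but the groups overlapped, and the difference of -0.21 ± 0.12 (SE) had a 95% confidence interval of -0.49 to 0.076 (adjusted p = 0.199). Its 5 probe sets ranged from -0.55 to 0.21 and none was called. The lowest of them, 1446303_at, had all BAT replicates below all sWAT replicates and an adjusted p of 0.0543.

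For Igf2r, the clearance receptor, values were 0.014, -0.047, -0.51 and -0.046 in sWAT and -0.77, -0.069, 0.18 and 0.47 in BAT. The groups overlapped and BAT spanned 1.24 log2 units, against 0.52 in sWAT. The difference was 0.10 ± 0.24 (SE), with an interval of -0.48 to 0.68 (adjusted p = 0.755). The lowest value of each tissue, BAT replicate 1 and sWAT replicate 3, came from the replicates with an array of low 5' signal, and the arrays of BAT replicate 1 were 1.34 apart. The part of RNA quality in those values was not tested. Without the 2 low arrays Igf2r again did not pass. Airn, the antisense RNA that silences paternal Igf2r, was higher in BAT by 0.38 ± 0.11 (SE, adjusted p = 0.038), with all BAT replicates above all sWAT replicates.

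Among the 6 binding protein genes, Igfbp4 and Igfbp7 were lower in BAT, none was higher and 4 did not pass. Igfbp4, which encodes an inhibitor of IGF action that PAPP-A cleaves, had values of 0.22, 0.49, -0.030 and 0.79 in sWAT and -0.96, -0.81, -0.55 and -0.10 in BAT. Every BAT replicate was below every sWAT replicate, although BAT replicate 4 and sWAT replicate 3 lay close to each other. The difference was -0.97 ± 0.16 (SE), or 1.96-fold higher in sWAT, with an interval of -1.35 to -0.60 and an adjusted p of 0.00312. It was negative at all 4 replicate numbers, from -1.29 to -0.52. Of its 6 probe sets 5 were called lower in BAT, from -1.35 to -0.87, and 1421991_a_at differed by -0.023 (adjusted p = 0.913). The arrays of sWAT replicate 3 were 1.08 apart for this gene. With biological arrays only the difference was -0.62 (adjusted p = 0.0532), which ended the call, and with technical arrays only it was -1.32, whereas without the 2 arrays of low 5' signal it was -0.98 (adjusted p = 8.31e-04).

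Igfbp7, the low affinity member, lay at 0.082, 0.29, 0.14 and 0.22 in sWAT and at -0.28, -0.27, -0.42 and 0.051 in BAT. The groups did not overlap, with BAT replicate 4 just under sWAT replicate 1. The difference of -0.41 ± 0.12 (SE), 1.33-fold higher in sWAT, was close to the threshold (interval -0.71 to -0.12, adjusted p = 0.0374), and it fell short of the threshold in 9 of 16 alternative analyses, including those without replicate number 1, 2 or 3 (adjusted p = 0.0776, 0.173 and 0.0853). Its probe sets disagreed. 1423584_at differed by -1.28 (adjusted p = 0.0072), 1423585_at by -0.44 (adjusted p = 0.0785) and 1437804_at by 0.47 (adjusted p = 0.112), and for the last all BAT replicates were above all sWAT replicates. The gene value is the mean of these 3 and its sign is that of the first 2.

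Igfbp6, whose product prefers IGF2, had the widest spread of the 10 genes. Its single probe set gave -0.25, 1.79, -0.20 and 0.33 in sWAT and -2.02, -0.15, -0.53 and 1.22 in BAT. The groups overlapped over most of their range, with 1 BAT replicate well below and 1 above most sWAT replicates, and the difference of -0.79 ± 0.45 (SE) had an interval of -1.86 to 0.28 (adjusted p = 0.196). BAT was lower at replicate numbers 1 to 3, by -1.78, -1.94 and -0.34, and higher at number 4, by 0.90. Without number 4 the difference was -1.35 and passed the test (adjusted p = 0.018). That fit kept only the BAT replicates with the Xist signal, which no sWAT replicate had. BAT replicate 4 lay 0.80 above the sWAT mean. The arrays of sWAT replicate 3 were 1.93 apart for Igfbp6, the largest gap between arrays of a replicate among the members.

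Igfbp3, which encodes the main IGF carrier of the circulation, also varied more within tissues than between them. It lay at 0.023, 0.29, -0.36 and -0.52 in sWAT and at -0.54, 0.17, 0.91 and -0.96 in BAT. The highest and the lowest of the 8 values were both BAT replicates. The difference was 0.037 ± 0.30 (SE), with an interval of -0.67 to 0.74 (adjusted p = 0.926), and its sign turned with the scaling, being -0.023 after array medians were subtracted. Its neighbour Igfbp1, the liver gene of the family, gave 0.0021 ± 0.16 (SE, adjusted p = 0.992).

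Igfbp2 and Igfbp5 are adjacent genes whose products carry IGF in serum and bind it in the extracellular matrix, respectively. Igfbp2 lay at 0.038, 0.53, -0.098 and 0.014 in sWAT and at 0.099, -0.12, -0.11 and 0.095 in BAT, a difference of -0.13 ± 0.16 (SE, interval -0.50 to 0.24, adjusted p = 0.524). Its groups overlapped, and 1 sWAT replicate, number 2, was above all the others. Igfbp5 lay at -0.32, 0.72, 0.31 and 0.11 in sWAT and at -0.20, -0.15, -0.20 and 0.27 in BAT, a difference of -0.27 ± 0.20 (SE, interval -0.74 to 0.19, adjusted p = 0.291). Here the lowest value was a sWAT replicate, and the 2 probe sets went opposite ways, 1452114_s_at by -0.93 (adjusted p = 0.0556) and 1422313_a_at by 0.39 (adjusted p = 0.188). sWAT replicate 2 was the highest of its tissue for Igfbp2, Igfbp5 and Igfbp6 as well as for Igf1, Igf1r, Igfbp3 and Igfbp7.

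BAT replicate 4 differed from the other BAT replicates in many of these genes. It was the highest BAT replicate for 6 of 10 members and the lowest for 2. It exceeded the mean of BAT replicates 1 to 3 by 1.59 for Igf1, 2.13 for Igfbp6, 0.67 for Igfbp4, 0.38 for Igfbp7 and 0.46 for Igfbp5, was below it by -1.14 for Igfbp3, and differed by -0.024 for Igf2. The range over replicates was wider in BAT than in sWAT for 8 of 10 members. Replicate 4 was also the BAT library without the Xist signal. Its brown adipocyte list mean was 1.43, against 2.53 to 2.62 in BAT replicates 1 to 3 and -2.14 to -1.11 in sWAT. The white depot list mean was 0.0026 in BAT replicate 4, against -1.01 to -0.80 in BAT replicates 1 to 3 and 0.32 to 0.54 in sWAT. That mean joins genes that went opposite ways. In BAT replicate 4 Hoxc8, Hoxc9, Hoxc10, Retn and Shox2 lay below every sWAT replicate. Agt, Nnat, Tbx15 and Tcf21 lay above every one, and Lep lay within the sWAT range. The skeletal muscle list mean of BAT replicate 4, 3.80, was the highest of the BAT replicates. For BAT replicates 1 to 3 the animals' sex and the tissue cannot be told apart, since no sWAT replicate had the Xist signal. This holds for every member, called or not. Whether the dissection or another feature of these libraries has a part in the values was not tested.

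**Figure D3:**
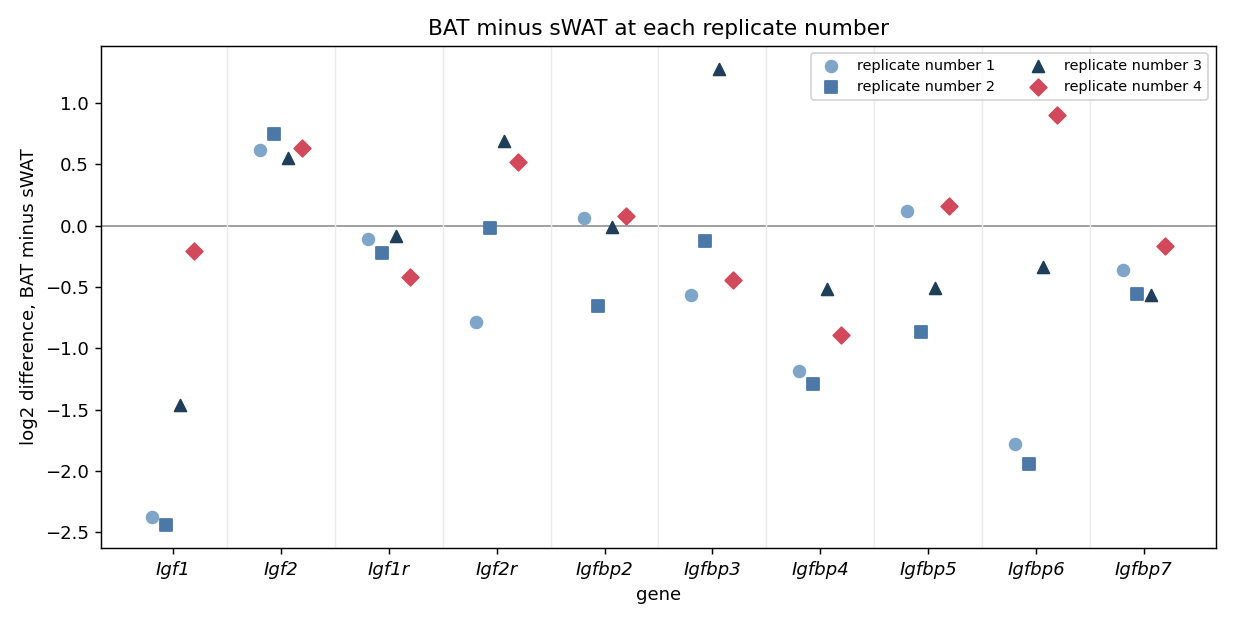
Log2 difference between the BAT and sWAT replicates of the same number (vertical axis) for each gene, with 1 symbol per replicate number. The 4 numbers lay within 0.55 to 0.75 for the mean of the Igf2 probe sets but spread from -2.44 to -0.21 for Igf1 and from -1.94 to 0.90 for Igfbp6, where number 4 (diamonds) was the highest.

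The progenitor and fibroblast list mean and the macrophage list mean were lowest in BAT replicate 1 and highest in BAT replicate 4 among the BAT replicates. So were Igf1, Igf2r, Igfbp4, Igfbp5 and Igfbp6, although Igfbp5 was nearly equal in BAT replicates 1 (-0.199) and 3 (-0.197). Igfbp7 was highest in replicate 4 and lowest in replicate 3. Igf2, Igf1r, Igfbp2 and Igfbp3 were highest in another BAT replicate. The technical array of BAT replicate 1 had low 5' signal. On its biological and technical array Igf2r was -0.10 and -1.44, Igfbp4 -0.47 and -1.45, and Igfbp6 -1.47 and -2.58. Igf1 (-2.23 and -1.92) and Igfbp5 (-0.43 and 0.032) went the other way. The B cell and T cell list means in BAT replicate 4, -2.17 and -1.07, were below every sWAT replicate. In whole tissue, fewer cells of a type and less RNA per cell cannot be told apart. Of 14 measured adipose progenitor and fibroblast markers, 8 were lower in BAT and none was higher, with a median of -0.79. Their mean value was 0.11, 1.11, 0.24 and 0.38 in the sWAT replicates and -1.67, -0.96, -0.98 and 0.48 in BAT. BAT replicate 4 was thus above 3 of 4 sWAT replicates in the list mean, as it was for Igfbp6. The list's defining markers were Pdgfra, the receptor of mesenchymal progenitors, at -0.55 ± 0.13 (SE, adjusted p = 0.0157), and Dpp4, of early progenitors, at -2.30 ± 0.21 (SE, adjusted p = 2.61e-04). Unlike the list mean, both lay below every sWAT replicate in BAT replicate 4, Pdgfra at -0.069 and Dpp4 at -0.64.

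Of 13 macrophage markers, 7 were lower in BAT and 1, Cd163, was higher, with a median of -0.92. Their mean was 0.039, 0.23, -0.21 and 0.68 in sWAT and -1.41, -0.59, -0.30 and 0.36 in BAT, so that BAT replicate 4 again lay within the sWAT range. Adgre1, a macrophage surface receptor, differed by -0.92 ± 0.24 (SE, adjusted p = 0.0218) and Csf1r, the receptor of the macrophage growth factor, by -1.18 ± 0.15 (SE, adjusted p = 0.00114). Of 12 endothelial markers 2 were higher in BAT and 0 lower (Pecam1 at -0.43 and Cdh5 at 0.33, neither called), and of 12 smooth muscle and pericyte markers 4 were higher and 0 lower (Acta2 at 0.48, called, and Tagln at 0.066, not called). The mean of the endothelial list ranged from -0.72 to 0.27 in sWAT and from -0.53 to 0.40 in BAT, and that of the smooth muscle list from -0.54 to 0.075 and from -0.033 to 0.44. The skeletal muscle list ranged from -1.96 to -1.58 in sWAT and from 2.05 to 3.80 in BAT. The part of cell makeup in the differences of Igf1, Igf2 and the binding protein genes was not tested.

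**Figure D4:**
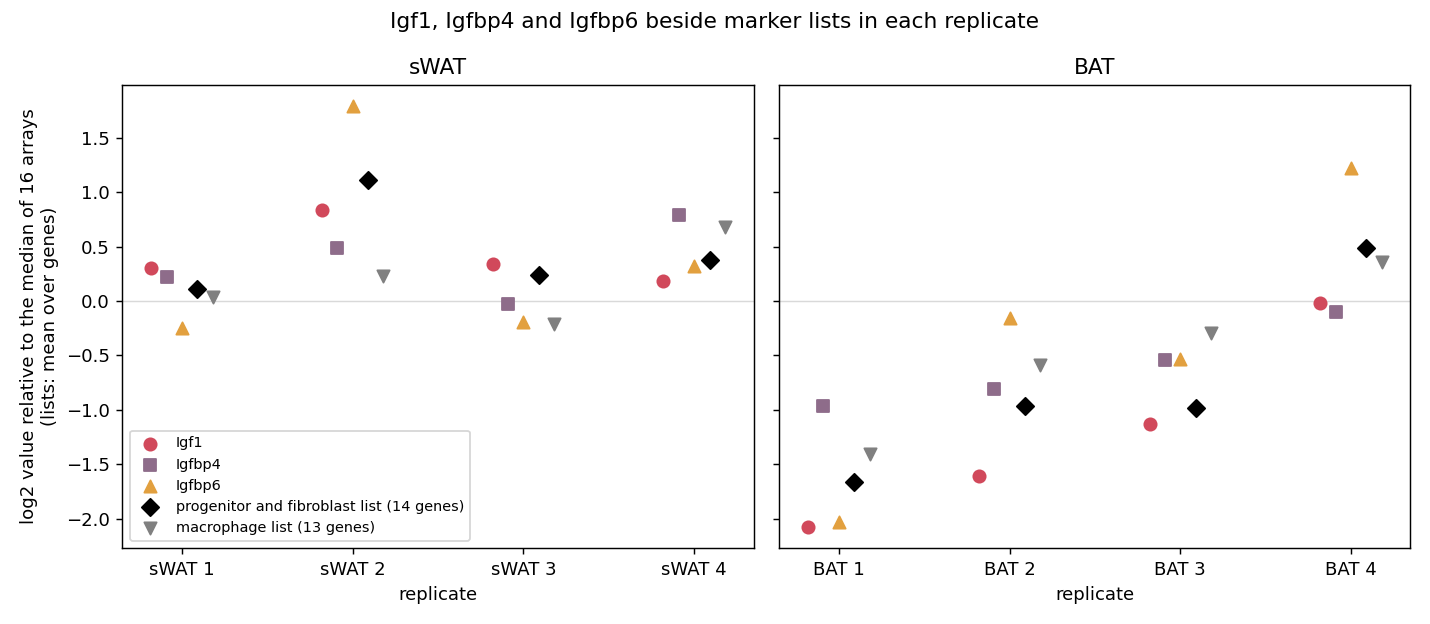
Log2 values of Igf1, Igfbp4 and Igfbp6 beside the mean of 14 progenitor and fibroblast markers and of 13 macrophage markers in each replicate of sWAT (left) and BAT (right), all relative to the median of the 16 arrays. In BAT replicate 4 both list means (0.48 and 0.36) and Igfbp6 (1.22) were above 0, whereas in BAT replicate 1 all plotted values were negative.

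A list of 40 further genes of the IGF system, from growth hormone signalling to proteases and adaptors, was examined as partners, of which 38 were measured. Of these, 6 were higher in BAT, 5 were lower and 27 did not pass, against background shares of 21% and 17.5%, and their median difference was 0.073. The insulin receptor gene and 1 of its substrates were higher in BAT. Insr, the insulin receptor, which also forms hybrids with IGF1R, lay at -0.41, -0.21, -0.078 and -0.42 in sWAT and at 0.60, 0.42, 0.28 and 0.060 in BAT, without overlap, a difference of 0.62 ± 0.14 (SE, adjusted p = 0.0137). Irs1, the substrate that couples both receptors to PI3K, differed by 0.73 ± 0.15 (SE, adjusted p = 0.00957), although its groups overlapped, since sWAT ranged from -1.04 to 0.31 and BAT from 0.057 to 0.70. All 4 replicate numbers had the higher Irs1 value in BAT. Ide, a protease that degrades insulin and IGF2, differed by 0.94 ± 0.12 (SE, adjusted p = 0.001), with sWAT from -0.40 to -0.31 and BAT from 0.38 to 0.66.

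Proteases that cleave binding proteins went both ways. Adam12, which cleaves IGFBP3 and IGFBP5, was higher in BAT by 1.14 ± 0.16 (SE, 2.20-fold, adjusted p = 0.00185), with values of -0.36, 0.064, -0.56 and -0.57 in sWAT and 0.98, 1.11, 0.95 and 0.088 in BAT. Here BAT replicate 4 was the lowest of its group and just above the highest sWAT replicate. Pappa, the protease for IGFBP4, differed by 0.47 ± 0.16 (SE, adjusted p = 0.0495), at the edge of the threshold. Htra1, a secreted serine protease that cleaves binding proteins, was lower in BAT by -1.27 ± 0.25 (SE, 2.41-fold higher in sWAT, adjusted p = 0.00791), with 0.20, 0.83, -0.045 and 0.33 in sWAT and -1.38, -1.21, -1.08 and -0.080 in BAT. As for Igf1, its BAT replicate 4 lay near the sWAT values.

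Among partners called lower in BAT, the largest differences after Htra1 were those of Vtn, Socs2 and Foxo1. Lrp1 and Prss23 differed by more than Foxo1, at -0.61 and -0.56, but did not pass (adjusted p = 0.0519 and 0.0656). Vtn, vitronectin, a matrix protein that binds IGF2 and IGFBP5, differed by -0.82 ± 0.21 (SE, adjusted p = 0.02). Socs2, which restrains growth hormone receptor signalling, differed by -0.73 ± 0.14 (SE, adjusted p = 0.0073), and its BAT values of -0.17, -0.48, -0.48 and -0.42 did not set replicate 4 apart. Foxo1, the transcription factor that AKT inactivates, differed by -0.50 ± 0.13 (SE, adjusted p = 0.0193). For all 3 the groups did not overlap. Itgb3, an integrin subunit, was the fifth partner lower in BAT, at -0.44 ± 0.14 (SE, adjusted p = 0.044). Ghr, the growth hormone receptor, did not pass at -0.33 ± 0.21 (SE, adjusted p = 0.232), and neither did Igfals, the acid-labile subunit of the circulating complex, at 0.18 ± 0.12 (SE, adjusted p = 0.271). Ghr was lower in BAT at replicate numbers 1 to 3 and higher at number 4, by 0.42.

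**Figure D5:**
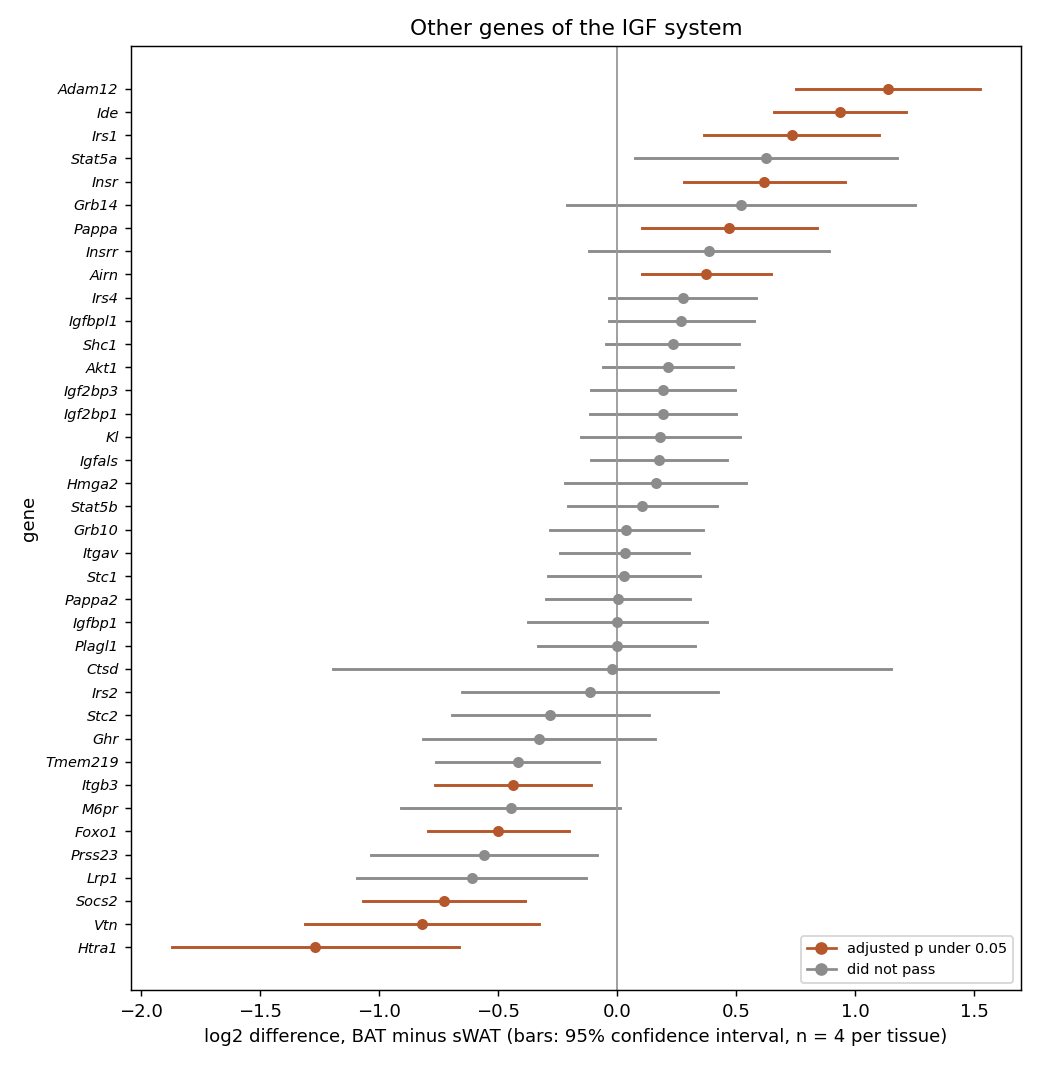
Log2 difference between BAT and sWAT (horizontal axis) with 95% confidence intervals over 4 replicates per tissue for the 38 measured partners, ordered by size. Coloured genes passed an adjusted p of 0.05. Of these 6 lay to the right of 0, led by Adam12 at 1.14, and 5 to the left, led by Htra1 at -1.27.

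Other genes were ranked by how close their 8 replicate values lay to those of the members with the largest difference in each direction. For Igf1 the 5 closest were Tuba1a, Fads3, Dpt, C1s1 and Tmem176b, with root mean square distances of 0.21 to 0.27 log2 units. Each of them had its highest BAT value in replicate 4, which choosing genes by closeness to Igf1 over these same values favours. Dpt is dermatopontin, a matrix protein in the progenitor and fibroblast list, and C1s1 is a complement protease. For Igf2 they were Mettl22, Zfp703, Ccdc107, Rnf24 and Cfap298, at 0.077 to 0.095. The shorter distances for Igf2 go with its smaller range of values, and nearness over 8 values is a description only.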

How the data were processed

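Total RNA of sWAT and BAT was hybridised to Affymetrix mouse genome arrays. Deposited values are log2: the authors summarised the arrays by RMA (robust multichip averaging) with quantile normalization and subtracted the median of all samples from each probe set, so the levels themselves are lost. Of 45101 probe sets, 34958 carried 1 gene symbol, 932 several and 9211 none in the platform annotation. Only the first were used for genes. Symbols were updated through Entrez IDs against RefSeq.

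The 2 arrays of a replicate were averaged, probe sets of a gene were averaged, and BAT was compared with sWAT in limma (version 3.58.1 under R 4.3.3), blocking on the replicate number because the methods used a paired test. P-values were adjusted by Benjamini-Hochberg over all 18194 genes or all 45101 probe sets. The study's methods give 4 mice. The code was tested on simulated data.

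The members and all gene lists were chosen with earlier results of these data known. Named in the text were all members, of the called partners with all 4 replicate numbers the same way the 4 with the largest difference in each direction, 6 partners whatever their values, the 5 genes closest to Igf1 and to Igf2, and 1 or both of the first 2 markers of most lists. Airn, Itgb3, Lrp1, Prss23, Cd163 and Igfbp1 were named after their values were seen. Alternatives covered the block, array choice, scaling, each replicate left out, the test and the choice of probe sets. Promoters came from a RefSeq table on GRCm38.p6.

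Of the other marker lists, white depot markers were lower in BAT in 6 of 10 and adipocyte markers higher in 4 of 7.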

Additional observations from a re-analysis of the deposited data

Results flagged for a closer look

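Groups of 4 replicates were screened for a lone high or low value by the gap to its nearest neighbour over the range. Of 20 groups, 2 passed the limit, and chance gives about 1 in 20. Igf2r in sWAT replicate 3 was -0.51, against -0.05 to 0.01 in the other sWAT replicates, and this replicate holds an array of low 5' signal. Igfbp5 in BAT replicate 4 was 0.27, against -0.20 to -0.15 in the other BAT replicates. Neither gene passed the test between tissues.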

How the results depend on the processing

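Igf2 was higher in BAT in all 16 alternatives and called in 15. Under scaling to Gapdh and Actb its difference was 0.63 ± 0.67 (SE), and the call was lost. All members had this same SE on that scale, so it is not the spread of Igf2 alone. That scale averaged all Gapdh and Actb control probe sets, including the 5' ones that were low on 2 arrays. It left no call in either direction among the members and partners (0 of 10 genes, 0 of 28 probe sets and 0 of 38 partners). Over all genes it called 1.35% higher and 2.14% lower, with a median SE of 0.665 against 0.141. In limma, 1 gene and 6 probe sets were lower there at an unadjusted p under 0.05. The paired test named in the methods, rerun here over the 4 averaged pairs, called 1 member gene higher and 0 lower. It called 0 probe sets higher and 2 lower, and 3 partners higher and 0 lower. At an unadjusted p under 0.05, 2 genes were lower, 1 probe set higher and 4 partners lower. Over the array it called 10.1% of all genes higher and 9.55% lower, and 4.97% and 6.37% of all probe sets. BAT replicate 4 alone against sWAT gave 0 genes lower in limma (2 unadjusted), 1 probe set lower, and 3 partners higher and 2 lower, against 10.7% and 9.08% of all genes and 9.72% of all probe sets lower; the lone BAT library is assumed to vary like the sWAT replicates. Leaving out each replicate number gave 1 to 4 genes lower, against 12.6% to 16.9% of all genes. It gave 1 to 2 probe sets higher and 6 to 12 lower, against 8.95% to 14.3% and 12.7% to 16.8% of all probe sets. For partners it gave 3 to 5 higher and 2 to 7 lower, where 12.9% to 20.3% of all genes were called higher. The lowest gene and probe set counts were those without number 1, where Igf1 and Igfbp7 lost their calls. The lowest partner counts were those without number 1 or 2. Taking each array as a replicate called 4 probe sets higher, 13 partners higher and 9 lower, against 31.8% of all probe sets higher and 38.7% and 23.7% of all genes, and Igf1r was then called lower (adjusted p = 0.0102). Plain probe sets alone (no shared or extended sets) called 3 of 31 partners lower, against 16.5% of all genes, and gave no value for Igfbp2, Igfbp4 and Igfbp5. Omitting the arrays of low 5' signal called 8 partners lower, against 20.5% of all genes. Dropping sWAT replicate 3 and BAT replicate 1 altogether, an alternative chosen after seeing the data, called 2 probe sets higher, against 18.2% of all probe sets.

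Without the replicate block, 1 gene was higher and 3 were lower, against 28% and 19.1% of all genes. There 3 probe sets were higher, against 21.7% of all probe sets. Deviations from tissue means correlated at -0.336 to 0.26 between same-numbered libraries and -0.298 to 0.52 between others. The 0.52 joined replicates with low 5' arrays.

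Signs turned only for members that did not pass. Igf2r was -0.31 with technical arrays, -0.097 without replicate 3 and -0.039 without replicate 4 (0.40 without replicate 1). Igfbp3 was -0.17 with technical arrays, -0.023 with array medians subtracted, -0.38 without replicate 3 (0.24 without replicate 1), -0.82 with BAT replicate 4 alone and -0.093 with plain probe sets. Igfbp2 was 0.044 without replicate 2, the others left out giving down to -0.20. With BAT replicate 4 alone Igfbp5 was 0.068 and Igfbp6 was 0.80. The cause was not tested. Counts of probe sets were not recomputed under the alternatives that choose among probe sets of a gene. Signal over background is not known from centred values.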
